A study of Mus musculus with 4 samples.

Results

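Myosin light chains and myosin-binding proteins are the small partners of the myosin heavy chain in the thick filament of striated muscle. The genes described here are the light chains Myl1, Myl2, Myl3, Myl4 and Myl7, the cardiac light chain kinase Mylk3, and the myosin-binding proteins C Mybpc1, Mybpc2 and Mybpc3. They were followed through the probes of the array that are annotated to a RefSeq or Ensembl transcript of these genes, which gave 14 probes of 55681 non-control probes, for 9 genes of 21762 that could be named. Of these genes 4 had more than 1 probe and 5 had 1 probe.

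To screen for transcripts that change when the heart works against a raised pressure, RNA was taken from hearts of male mice at 2 and 8 weeks after transverse aortic constriction (TAC), an operation that narrows the aorta, or after a sham operation. Total RNA of 4 to 6 mice was mixed for each condition and hybridized to 1 array, which gave 4 arrays: sham at 2 weeks, TAC at 2 weeks, sham at 8 weeks and TAC at 8 weeks. By the labels the animals were 10 weeks old at 2 weeks and 16 weeks old at 8 weeks, whereas the methods of the study give C57BL/6J males operated on at 12 weeks of age. Neither source names an altered gene in any of the 4 groups. With 1 array of pooled RNA in each group, no comparison has a replicate of its own, the spread between animals is unknown, and no test was made.

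In a working sarcomere each myosin head carries an essential and a regulatory light chain wrapped around its neck. The ventricle uses Myl3 as its essential and Myl2 as its regulatory light chain, the atrium uses Myl4 and Myl7, and Myl1 encodes the essential light chains of fast skeletal muscle. Myosin-binding protein C lies across the thick filament and restrains the heads, and it exists as a cardiac (Mybpc3), a fast skeletal (Mybpc2) and a slow skeletal form (Mybpc1). Mylk3 phosphorylates the ventricular regulatory light chain. Mutations of MYL2, MYL3 and MYBPC3 are known causes of hypertrophic cardiomyopathy in people.

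The genes of the fast skeletal forms, Myl1 and Mybpc2, were higher on the TAC array than on the sham array at both times. The TAC over sham ratio of Mybpc2 was 3.86 at 2 weeks and 3.11 at 8 weeks, and that of the brighter Myl1 probe was 1.83 and 2.74. The ventricular and cardiac forms Myl2, Myl3 and Mybpc3 had log2 ratios between -0.17 and 0.14, by their brightest probes. The kinase Mylk3 was lower in TAC on all 3 of its probes at both times, and the atrial Myl7 was well above background on only 2 of the 4 arrays. A ratio of over 2-fold between arrays, with the brighter array well above background, was taken as a call. By this rule 2 member probes, of the Myl1 3f transcript and of Mybpc2, were higher in TAC at 2 weeks, where 1.89% of all probes were called higher, and 0 were lower, where 1.0% were. At 8 weeks 3 member probes, both of Myl1 and that of Mybpc2, were higher, against 1.89% of all probes, and 1, of Myl7, was lower, against 1.77%. The same 2 probes were called higher at both times, against 0.372% of all probes, and no member probe was lower at both, against 0.124%.

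Signals are given as multiples of the 75th percentile of the non-control probes on the same array, and ratios as log2 of TAC over sham. Probes with several spots on the array gave the noise of the spots themselves. For probes as bright as the 75th percentile or brighter, the log2 ratio of 1 spot varied with an SD of 0.0708 at 2 weeks and 0.0653 at 8 weeks, and for probes below 0.25 of it with an SD of 0.261 and 0.241. This spread covers the printing and scanning of spots, and not the labelling, the pool or the animals. The sham arrays at 2 and 8 weeks differ in age as well as in pool, and their ratio is given beside each member as the difference between pools without TAC. The arrays lay on 1 slide and were read in 1 scan. As a check of the labels, the beta myosin heavy chain gene Myh7, which is known to rise in the overloaded mouse heart, read 69.4 and 69.3 on the sham arrays and 455.1 and 895.0 on the TAC arrays at 2 and 8 weeks.

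**Figure D1:**
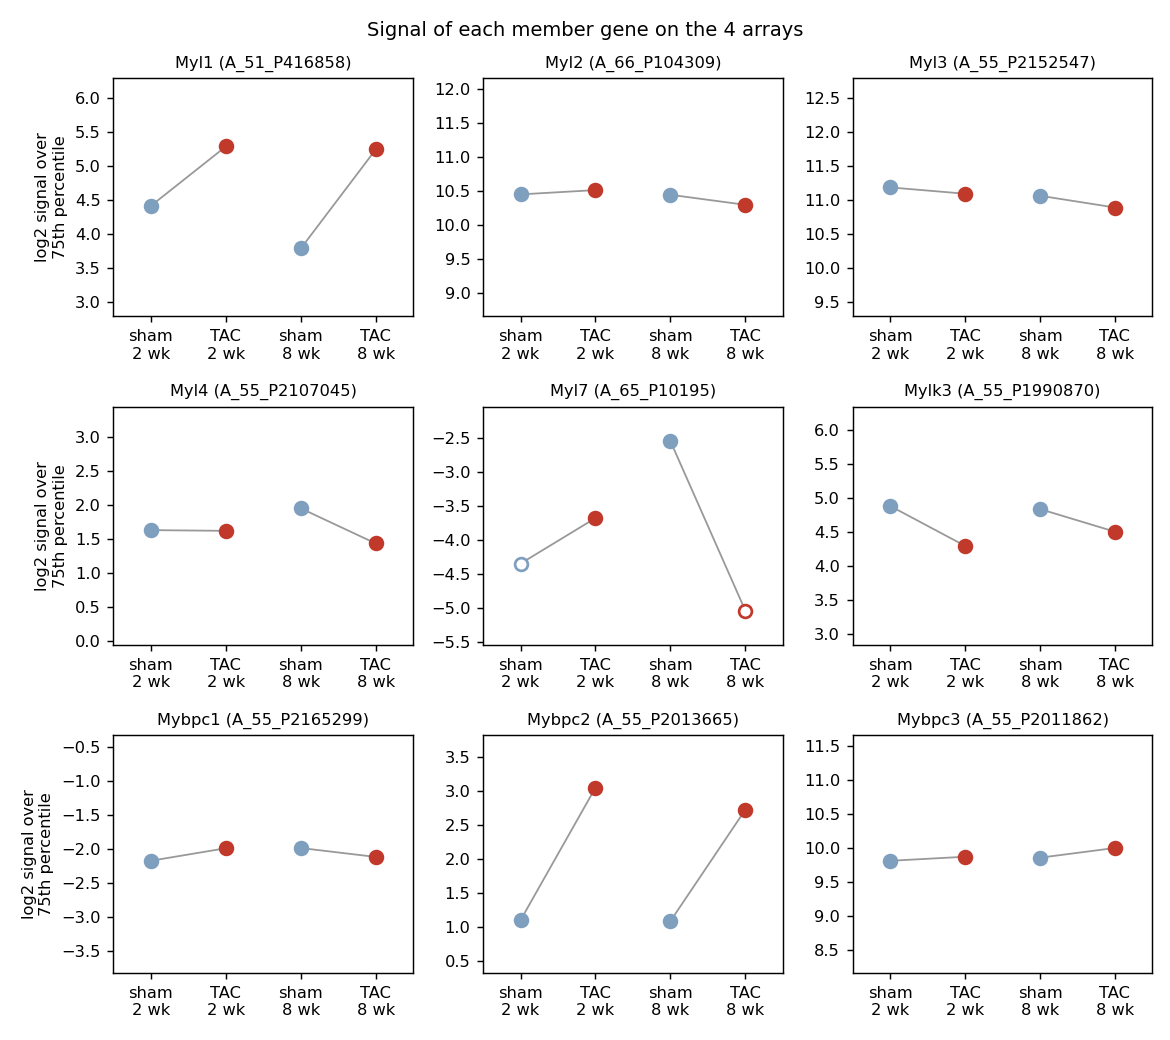
Signal of each member gene by its brightest probe on the 4 arrays, as log2 of the multiple of the 75th percentile of the array (vertical axis, the same span of log2 units in every panel). Blue points are sham, red points are TAC, open points are not well above background, and a line joins the arrays of 1 time; each point is 1 pool. Myl1 and Mybpc2 lie higher on both TAC arrays, Mylk3 lies lower on both, and Myl2, Myl3 and Mybpc3 stay nearly level.

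Myl1 encodes 2 proteins from alternative starts, light chain 1f and light chain 3f, which share most of their sequence. The probe for the 1f transcript (A_51_P416858, NM_021285) read 21.3 on the sham array at 2 weeks, 39.1 on the TAC array at 2 weeks, 13.8 on the sham array at 8 weeks and 37.9 on the TAC array at 8 weeks. Both TAC arrays lay above both sham arrays, and the TAC arrays were nearly equal. The log2 ratio was 0.87 at 2 weeks, below the call, and 1.46 at 8 weeks. The sham array at 8 weeks was lower than that at 2 weeks by 0.63 on the log2 scale, while the log2 ratio of the TAC arrays was -0.04, so the larger ratio at 8 weeks came with a lower sham value. The probe for the 3f transcript (A_52_P273120, NM_001113387) read 1.04, 2.20, 0.929 and 2.22 in the same order of arrays. Its log2 ratios of TAC over sham were 1.08 and 1.26, and that of the sham arrays, 8 over 2 weeks, was -0.17. Both probes were thus higher in TAC at both times, and the gap between the sham pools was larger on the 1f probe. The probes are assigned to 1f and 3f by annotation only, and whether either also reads the other form was not tested.

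Mybpc2, the fast skeletal myosin-binding protein C, was read by 1 probe (A_55_P2013665, NM_146189). It gave 2.14 on the sham array at 2 weeks, 8.28 on the TAC array at 2 weeks, 2.12 on the sham array at 8 weeks and 6.61 on the TAC array at 8 weeks. The log2 ratio of the sham arrays was -0.01, and both TAC arrays stood well above them. The log2 ratio was 1.95 at 2 weeks, the 33rd highest of 29895 probes well above background on both arrays, and 1.64 at 8 weeks, the 130th highest of 30411. The TAC array at 8 weeks was lower than that at 2 weeks by 0.32. In the same rankings the Myl1 1f probe stood 363rd and 173rd, and the 3f probe 186th and 246th.

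**Figure D2:**
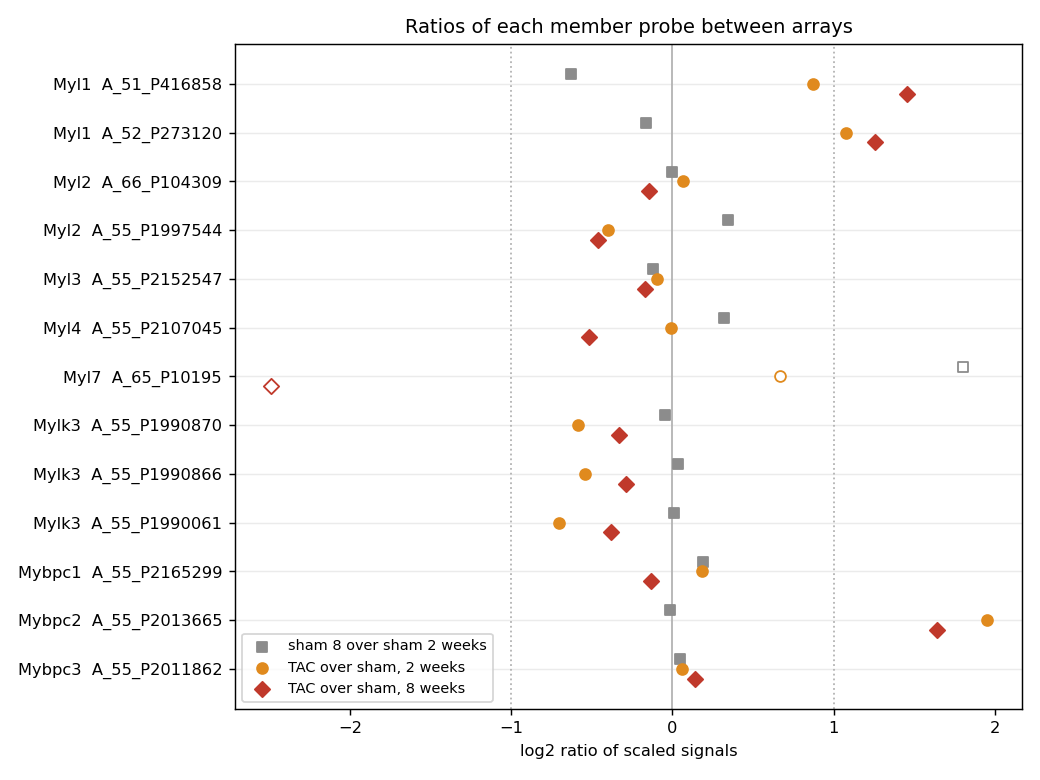
Log2 ratio of scaled signals (horizontal axis) for the 13 member probes that were well above background on at least 1 array. Circles are TAC over sham at 2 weeks, diamonds TAC over sham at 8 weeks, and squares sham at 8 weeks over sham at 2 weeks; open symbols are Myl7, where an array of each pair was not well above background, and dotted lines mark 2-fold. The Myl1 and Mybpc2 probes lie near or beyond 2-fold higher at both times, and all 3 Mylk3 probes lie to the left of 0 at both times while their sham ratios lie near 0.

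Since Myl1 and Mybpc2 are expressed mostly in fast skeletal muscle, markers of skeletal muscle were read on the same arrays. Of 14 skeletal muscle genes, leaving out the members, 8 were well above background on all 4 arrays. Actn3, Myh1, Myh2, Myh4 and Mylpf, which encode the fast alpha-actinin, the fast adult heavy chains and the fast regulatory light chain, were not above background on any. The summed signal of the 14 genes was 47.9 and 48.5 on the sham arrays and 37.8 and 37.6 on the TAC arrays. Most of it came from Tnnt1, Atp2a1 and Tmod4, at 20.2, 12.4 and 10.4 on the sham array at 2 weeks. Tnnt1 encodes the slow skeletal troponin T, so the sum is not one of fast muscle alone. The median log2 ratio of the 8 measured genes was -0.13 at 2 weeks and -0.42 at 8 weeks, against -0.02 and -0.04 over all measured probes. By the brightest probes, 1 gene of the list was called higher at 2 weeks, the calsequestrin gene Casq1, at 0.280 on the sham and 0.661 on the TAC array. At 8 weeks 1 was called higher, the ryanodine receptor gene Ryr1, at 0.138 on the TAC array and not well above background on the others. The second Tnnt3 probe, well above background on 3 arrays, read 0.0385 on the sham and 0.122 on the TAC array at 8 weeks. Its log2 ratios were -0.11 at 2 weeks and 1.66 at 8 weeks, against 0.54 and 0.35 on the brighter probe. The second Pvalb probe, well above background on 1 array, had -1.73 and -1.63, against -0.01 and -0.46 on the brighter. In tissue RNA a change in the number of cells that carry a transcript and a change in its amount per cell cannot be told apart.

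**Figure D3:**
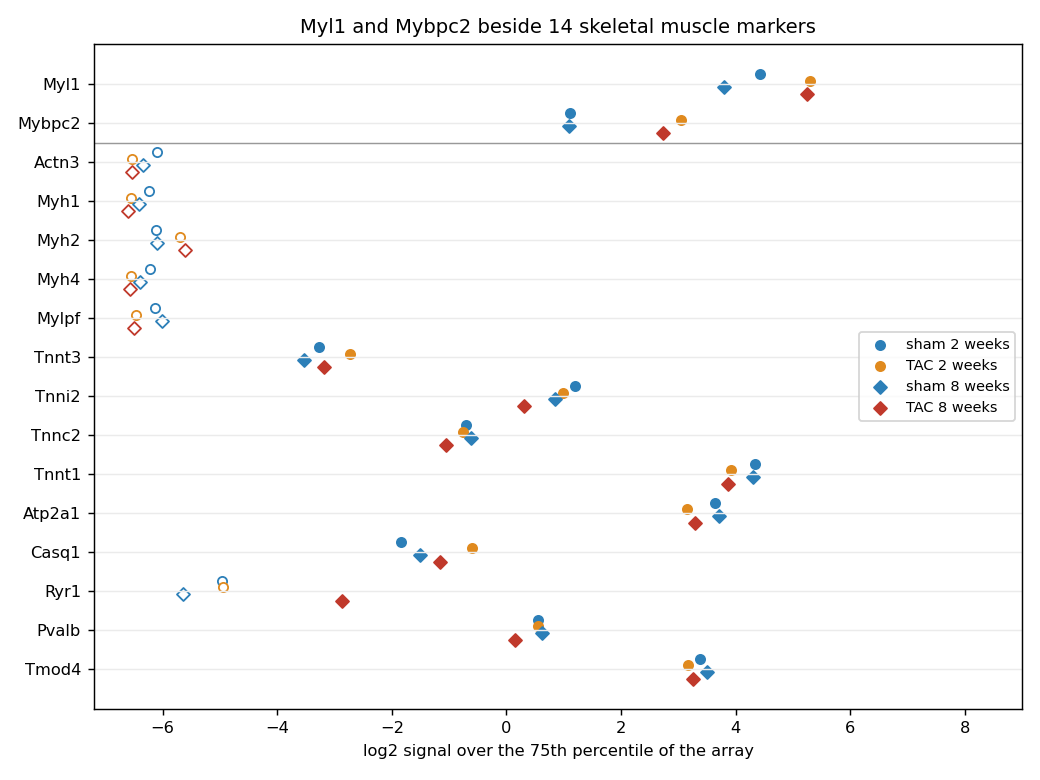
Signal of Myl1 and Mybpc2 (above the line) and of 14 skeletal muscle marker genes (below it) on the 4 arrays, as log2 of the multiple of the 75th percentile of the array (horizontal axis). Each gene is shown by its brightest probe. Circles are 2 weeks, diamonds 8 weeks, blue is sham, orange and red are TAC, and open symbols are not well above background. Actn3, Myh1, Myh2, Myh4 and Mylpf stay at background on every array, and of the other 9 markers Casq1 at 2 weeks and Ryr1 at 8 weeks lie over 2-fold higher in TAC.

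Markers of fibroblasts also stood higher on the TAC arrays. All 6 genes of the list were measured, with a summed signal of 198.5 and 222.2 on the sham arrays and 270.5 and 319.7 on the TAC arrays, and a median log2 ratio of 0.93 at 2 weeks and 0.87 at 8 weeks. Postn, which encodes the matrix protein periostin, was 4.90-fold and 7.59-fold higher, and the collagen gene Col1a1 was called at 8 weeks at 2.30-fold. Of 6 smooth muscle genes 5 were measured and 0 were called at either time. Of 8 genes of cardiac myocytes none was called, and their medians were -0.07 and -0.13. The part of other cell types in the values of Myl1 and Mybpc2 was not tested.

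The sequence before the start site is shown for Myl1 and Mybpc2, called higher in TAC, and for Myl3 and Mybpc3, which stayed level. For each, 250 bases upstream of the RefSeq start (GRCm38.p6) are given, 5′ to 3′ on the strand of the gene. Capitals mark matches, on either strand, to the E-box CANNTG, the M-CAT element CATTCC, the TATA box TATAAA, the CArG box and the MEF2 site. The Myl1 window belongs to the 1f transcript.
Myl1, chr1:66945057-66945306, minus strand: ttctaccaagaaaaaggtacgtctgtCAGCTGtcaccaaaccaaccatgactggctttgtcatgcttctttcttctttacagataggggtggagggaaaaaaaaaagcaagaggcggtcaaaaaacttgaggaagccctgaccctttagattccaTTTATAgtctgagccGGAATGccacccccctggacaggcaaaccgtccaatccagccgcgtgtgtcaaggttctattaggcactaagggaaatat
Mybpc2, chr7:44524670-44524919, minus strand: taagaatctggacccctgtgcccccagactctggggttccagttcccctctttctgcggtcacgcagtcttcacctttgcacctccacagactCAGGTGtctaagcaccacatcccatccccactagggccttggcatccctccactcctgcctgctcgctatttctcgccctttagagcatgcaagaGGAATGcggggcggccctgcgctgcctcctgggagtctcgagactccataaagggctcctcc
Myl3, chr9:110763428-110763677, plus strand: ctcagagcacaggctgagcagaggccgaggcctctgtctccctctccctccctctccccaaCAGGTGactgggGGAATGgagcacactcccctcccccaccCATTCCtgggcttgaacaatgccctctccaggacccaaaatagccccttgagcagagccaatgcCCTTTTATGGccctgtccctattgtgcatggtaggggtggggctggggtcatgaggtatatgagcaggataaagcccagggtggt
Mybpc3, chr2:91117894-91118143, plus strand: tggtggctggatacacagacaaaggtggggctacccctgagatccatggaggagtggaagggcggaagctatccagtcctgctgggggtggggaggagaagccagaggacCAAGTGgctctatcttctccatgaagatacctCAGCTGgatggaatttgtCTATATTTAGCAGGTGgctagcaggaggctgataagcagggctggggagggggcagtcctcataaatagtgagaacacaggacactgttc

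These are matches of letters and not measured binding. Counting the start site as 0, the M-CAT letters begin at -80 in Myl1 and at -62 in Mybpc2, each on the reverse strand, and at -177 and -149 in Myl3. They are found in 12.6% of 32851 windows of this length. Myl3 holds a CArG box at -85, a match seen in 1.47% of windows, and Mybpc3 holds a MEF2 site at -90, seen in 2.92%. Myl1 has a TATAAA on the reverse strand at -95, seen in 12.4%. An E-box is in all 4 windows and in 66.2% of all. The table held a window for each of the 9 genes. M-CAT letters were found both in the windows of members that were higher in TAC and in that of Myl3, which was not. Among the windows not printed, they begin at -70 in Myl7 and at -148 in a Mylk3 window. Myl7 also holds a CArG box, at -61.

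The ventricular light chains stayed close to their sham values. Myl3, the essential light chain of ventricle and slow muscle, was read by 1 probe (A_55_P2152547, NM_010859) at 2328 on the sham and 2183 on the TAC array at 2 weeks, and at 2138 on the sham and 1897 on the TAC array at 8 weeks. Its log2 ratios were -0.09 and -0.17, and the sham arrays differed by -0.12, so the ratio at 2 weeks was within the difference of the sham pools. This probe gave the highest raw signal of the array, 480666 on the sham array at 2 weeks, which is 61.8% of the scanner's saturation value, and no spot was marked as saturated. Myl2, the ventricular regulatory light chain, read 1396, 1458, 1390 and 1255 on its brightest probe (A_66_P104309, NM_010861), with log2 ratios of 0.06 and -0.15 and a sham ratio of -0.01. The ratios at 8 weeks were 0.02 for Myl2 and -0.01 for Myl3 when the arrays were scaled to 8 cardiac myocyte genes.

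The second Myl2 probe (A_55_P1997544, ENSMUST00000111750) did not follow the first. It read 9.25 on the sham and 7.02 on the TAC array at 2 weeks, and 11.7 and 8.53 at 8 weeks, with log2 ratios of -0.40 and -0.46. The sham arrays differed by 0.34 on this probe, which is nearly as much. It is annotated to another transcript of Myl2 than the first.

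Mylk3 was measured by 3 probes, and all 3 were lower in TAC. The brightest (A_55_P1990870, ENSMUST00000034133) read 29.5 and 19.7 at 2 weeks and 28.6 and 22.7 at 8 weeks, sham before TAC, so both TAC arrays lay below both sham arrays. The log2 ratio was -0.59 at 2 weeks, or 33.4% lower, and -0.33 at 8 weeks, or 20.6% lower. The probe A_55_P1990866 read 4.01, 2.75, 4.10 and 3.36, with ratios of -0.55 and -0.29, and the probe A_55_P1990061, annotated like it to NM_175441, read 0.509, 0.312, 0.511 and 0.393, with ratios of -0.71 and -0.38. The log2 ratios of the sham arrays lay between -0.05 and 0.03 on the 3 probes. None of the ratios reached 2-fold. Of the probes measured on both arrays, 9.90% differed by more than 0.5 in either direction at 2 weeks. A ratio beyond 0.5 was thus not rare. By rank at 2 weeks, the 3 probes were the 933rd, 1101st and 560th lowest of 29895 probes, in the order given above. At 8 weeks they were the 4357th, 5301st and 3519th lowest of 30411. The difference was smaller at 8 weeks on each probe, as the TAC arrays at 8 weeks were 0.21 to 0.33 higher than those at 2 weeks.

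Myl4, the atrial essential light chain, which the ventricle carries before birth, was measured well above background on all 4 arrays (A_55_P2107045, NM_010858). It read 3.08 on the sham and 3.06 on the TAC array at 2 weeks, and 3.85 on the sham and 2.69 on the TAC array at 8 weeks. The log2 ratio was -0.01 at 2 weeks and -0.52 at 8 weeks, or 30.1% lower. At 8 weeks the sham array was itself 0.32 above that of 2 weeks and the TAC array 0.19 below, so both parts entered the ratio.

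Myl7, the atrial regulatory light chain, read 0.0489 and 0.0778 at 2 weeks and 0.170 and 0.0303 at 8 weeks, sham before TAC (A_65_P10195, NM_022879). It was well above background only on the TAC array at 2 weeks and on the sham array at 8 weeks, and the direction was opposite at the 2 times. Against the lowest signal that is well above background on the dimmer array, it stood 1.30-fold higher in TAC at 2 weeks. At 8 weeks it stood 3.64-fold lower in TAC by the same reference, and only the latter was called. This reference is a signal of the whole array and sets no lower limit on the change of Myl7. Between the sham arrays Myl7 was 2.84-fold higher at 8 weeks by this reference. The measured ratio made it the 1 member probe called there, against 1.49% of all probes called higher. No member probe was called lower, against 0.853%. Between the TAC arrays it was 1.66-fold lower at the later time by this reference. The measured ratio made it the 1 member probe called lower, against 1.65% of all probes. None was called higher, against 1.19%. With a background correction by normexp its log2 ratio of TAC over sham at 2 weeks was 0.08 in place of 0.67. At 8 weeks it was -0.62 in place of -2.49, and between the sham arrays 0.45 in place of 1.80. Myl7 was then called in no comparison. At 8 weeks 0.246% of all probes were then called lower in TAC, against 1.77% without normexp.

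Atrial markers were read for the same reason as those of skeletal muscle. Of 10 genes of atrial myocytes, leaving out the members, 7 were well above background on all 4 arrays, and Mybphl, an atrial relative of myosin-binding protein C, was on none. The summed signal was 21.2 and 23.8 on the sham arrays and 17.4 and 18.1 on the TAC arrays, and the largest part was the potassium channel gene Kcnj5, at 11.6, 7.09, 13.1 and 7.49. The median log2 ratio of the measured genes was 0.23 at 2 weeks, so the sum and the median differ in sign there, and -0.24 at 8 weeks. The sarcolipin gene Sln read 0.0773, 0.0929, 0.120 and 0.0354, highest on the sham array at 8 weeks and not well above background on the TAC array at 8 weeks, the same order as Myl7 at that time. Kcnj3, another potassium channel gene, read 0.577, 0.336, 1.18 and 0.359 and was called lower at 8 weeks. Its other probe, well above background on all 4 arrays, read 0.686, 0.406, 0.712 and 0.343. The log2 ratio of TAC over sham at 8 weeks was -1.06 on that probe and -1.72 on the brighter one. The sham arrays, 8 over 2 weeks, differed by 0.05 and 1.04 on the log2 scale in the same order. Dkk3, in contrast, was called higher in TAC at both times, at 3.09-fold and 2.25-fold, with sham arrays that themselves differed 2.42-fold. The tissue is labelled as heart only, and how much atrium each pool held is not given in the sources used here. The part of atrial tissue in the values of Myl4 and Myl7 was not tested.

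Mybpc3, the cardiac myosin-binding protein C, read 895 on the sham and 932 on the TAC array at 2 weeks, and 923 on the sham and 1019.5 on the TAC array at 8 weeks (A_55_P2011862, NM_008653). The log2 ratios were 0.06 and 0.14 and the sham arrays differed by 0.05. The slow skeletal Mybpc1 was dim. Its brighter probe (A_55_P2165299, NM_175418) read 0.222, 0.253, 0.253 and 0.231, with ratios of 0.18 and -0.13. Its sham arrays gave a ratio of 0.19, as large as that of TAC over sham at 2 weeks, and its other probe was not well above background on any array. Of the 3 forms of myosin-binding protein C, then, only the fast skeletal gene passed 2-fold.

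**Figure D4:**
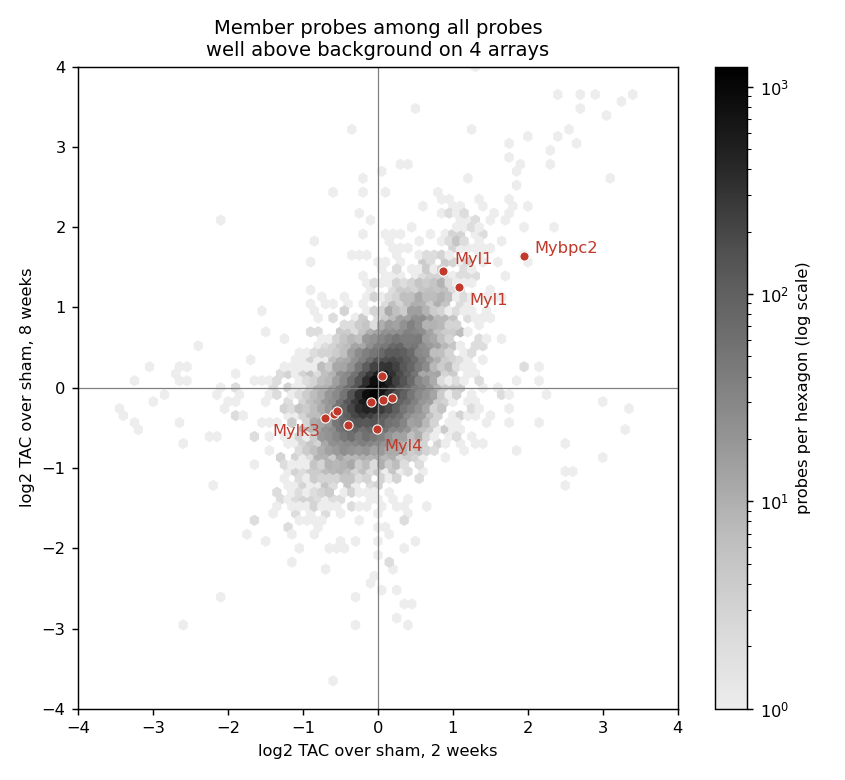
Log2 TAC over sham at 2 weeks (horizontal axis) against 8 weeks (vertical axis) for the 29262 probes well above background on all 4 arrays; grey hexagons hold 1 or more probes, shaded on a log scale, and 7 probes lie outside the axes. The 12 member probes measured on all 4 arrays are red. The 3 probes of Myl1 and Mybpc2 lie at the upper right. The 3 of Mylk3 and the second Myl2 probe lie at the lower left of the centre, Myl4 lies below it, and the others lie near it.

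The members differed in both directions. The median log2 ratio of the 8 measured member genes was 0.06 at 2 weeks and -0.14 at 8 weeks, against -0.02 and -0.04 over all measured probes. Between the sham arrays the median was -0.01 and between the TAC arrays -0.16, against 0.00 and -0.01 over all measured probes.

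Other genes of the light chains and the thick filament were read as lists, each gene by its brightest probe. Of 7 other myosin light chains, 5 were measured and none was called at either time, with medians of 0.22 and 0.29. Among them the non-muscle and smooth muscle regulatory light chain Myl12a had the largest ratio at 2 weeks, 0.50, and Myl6b, an essential light chain of slow and non-muscle cells, had the largest at 8 weeks, 0.82. The fast regulatory partner of Myl1, Mylpf, was at background on all 4 arrays. Of 10 other kinases and phosphatase subunits that act on the light chains none was called, and the lowest was the kinase gene Mylk4 at 8 weeks with -0.92. Of 6 other myosin-binding and M-band genes 4 were measured and none was called, and the M-band gene Myom3 had the largest ratio, 0.90 at 8 weeks. Of 7 kinases that phosphorylate myosin-binding protein C, 1 was called, Rps6ka3 at 2 weeks, on a probe that was 3.71-fold higher while its 2 other probes had log2 ratios of 0.49 and -0.05. The alpha heavy chain gene Myh6 had a ratio of -0.19 at both times, whereas Myh7 was 6.55-fold and 12.9-fold higher.

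The genes whose pattern over the 4 arrays lay nearest to each member that was called were found by the Euclidean distance of log2 values centred on their mean, among probes well above background on all 4 arrays. For the Myl1 1f probe they were Arhgef39, Tpx2 and Ccnb2, at distances of 0.066, 0.171 and 0.200. For Mybpc2 they were Clec4d, Anxa8 and Tceal7, at 0.264, 0.278 and 0.383. For Myl7 they were Trim43b, Fancc and Krt42, at 0.336 to 0.671. With 4 arrays many probes can lie near a given pattern, and nothing is drawn from these names.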

How the data were processed

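Total RNA of mouse hearts was labelled with Cy3 and hybridized to SurePrint G3 Mouse GE 8x60K arrays (annotation mm9). The deposited scanner files hold an intensity per spot and flags; the authors made them with Agilent Feature Extraction, version 10.7.3.1 per the file headers and 9.1 in the submitters' processing notes. The processed intensity is corrected for background and not normalized between arrays. Spots flagged as outliers were left out, log2 values of a probe's spots were averaged, and the 75th percentile of 55681 non-control probes was subtracted. Each member probe has 1 spot. The files hold no gene symbols, so probes were named by transcript accession through RefSeq and GENCODE tables, which gave 29501 probes 1 gene name. A gene is represented by its brightest probe, and all 9 member genes, called genes of the context lists, Myh6 and Myh7, and the 3 nearest genes of each called member are named. The members and lists were chosen with earlier results of these data known. With 1 array per group there is no test. Python 3.11.15, pandas 2.3.3, R 4.3.3 and limma 3.58.1 were used, and the counting was checked on simulated data. The alternatives changed the scaling (median, quantile, none, percentile over spots, cardiac myocyte genes), background correction (normexp, offset 50), filter, fold threshold, outlier spots, probe summary and the deposited series table. Precision is limited by 4 arrays.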

Additional observations from a re-analysis of the deposited data

Results flagged for a closer look

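Myl7 stood out because its direction was opposite at the 2 times: the log2 ratio of TAC over sham was 0.67 at 2 weeks and -2.49 at 8 weeks. With normexp background correction these were 0.08 and -0.62, and the former is within the spot SD of dim probes, 0.261. The difference was not tested, since each group is 1 array, and the probe was well above background on 1 array of each pair. The sham arrays alone differed by 1.80 on the log2 scale.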

How the results depend on the processing

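No paired analysis was possible because each group holds 1 array. The count of member probes called at 2 weeks was 2. With normexp it was 1, where 0.185% of all probes were called higher and 0.176% lower. At 1.5-fold it was 6 (4 higher and 2 lower), where 4.57% of all probes were called higher and 2.62% lower. At 3-fold it was 1, where 0.886% were called higher. At 8 weeks it was 4, and 2 (1 higher and 1 lower) at 3-fold, where 0.975% and 0.828% of all probes were called. It was 3 with normexp, where 0.418% of all probes were called higher and 0.246% lower. When both arrays had to be well above background it was also 3, where 0.774% and 0.548% were called. The lower call was lost in each. Between the sham arrays it was 1, and 0 with normexp, where 0.135% of all probes were called higher and 0.165% lower. When both sham arrays had to be well above background it was 0, where 0.210% and 0.183% were called. At 1.5-fold it was 2, where 3.05% of all probes were called higher and 2.02% lower. Between the TAC arrays it was 1, and 0 with normexp, where 0.171% of all probes were called higher and 0.119% lower. With both TAC arrays above background it was 0, where 0.350% and 0.320% were called. At 3-fold it was 0, where 0.656% and 0.621% were called. No ratio past 2-fold changed its sign. Small ratios of called genes between the times did, such as Myl1 between the TAC arrays, -0.08 to 0.23. Of 324 values recomputed for the 9 genes, 237 stayed within the spot SD and 87 moved, 23 of 36 with no normalization and 21 of 36 with scaling to cardiac myocyte genes, which was chosen after seeing the data. Without normalization the median of all measured probes at 8 weeks was 0.13, against -0.04. Over these alternatives Mybpc2 had log2 ratios of 1.79 to 2.03 at 2 weeks and 1.53 to 1.81 at 8 weeks, Myl1 0.83 to 0.98 and 1.36 to 1.62, and Mylk3 -0.63 to -0.51 and -0.36 to -0.17. The small ratios of Myl2 and Mybpc1 at 8 weeks and of Myl4 at 2 weeks change sign with the scaling. Averaging all probes of a gene changes the sign at 2 weeks of Myl2, to -0.17, and of Mybpc1, to -0.06. Quantile normalization sets Myl3, the brightest probe, to 0 by construction.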
